A study of Arabidopsis thaliana with 20 samples.

Results

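RNA from sorted Arabidopsis root cells carrying the label EZ (elongation zone) was compared between older seedlings, 6 and 7 days of age, and younger ones, 3 and 4 days of age. The comparison was set by the labels alone. It used 8 of the 20 libraries of the series, 4 on each side, with 2 libraries at each age, and the 21060 of 33201 listed genes that reached 1 FPKM, a count of fragments corrected for how long the transcript is and how deep the library was sequenced, in at least 2 of the 8. All plants were Col-0 seedlings carrying the PET111:GFP reporter, which marks the columella of the root cap, and were grown untreated on MS medium with sucrose. Roots were cut and protoplasted, and the cells without GFP were sorted, so the columella was meant to be left out in every group. The submitters call the 2 libraries of an age biological replicates. In the comparison of the sides, p values rest on the spread among the 4 libraries of a side, which includes any difference between its 2 ages. The 2 EZ libraries of day 5 lie between the sides and the 10 libraries with the label MZ (meristematic zone) came from the same ages, with day 5 in neither side.

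A root grows because cells divide in the meristem near its tip and then leave it, stop dividing, take up water and elongate before they differentiate into hairs, endodermis or vessels. During the first days after germination the meristem of an Arabidopsis root grows until the production of cells and their exit into elongation come into balance. Cytokinin promotes the exit and auxin maintains division, while gibberellin and brassinosteroid act on both division and elongation.

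Genes that mark cell types did not follow the zone labels. All 5 dividing-cell markers and all 3 stem cell niche markers had a higher mean in the EZ libraries than in the MZ ones. Of the root hair (4), endodermis (4) and xylem (5) markers 0 did, and of the phloem (4) and root cap (5) markers 2 each did. Summed levels of the dividing-cell markers were 56.2 to 156 FPKM in the younger EZ libraries and 37.1 to 148 FPKM in the older ones. They were 13.7 to 45.8 FPKM in the 8 MZ libraries of those ages. The libraries are therefore called here by their label, not by a zone. Within the older side 2 libraries stood apart, replicate 2 of day 6 and replicate 2 of day 7. Their summed root cap markers (5 genes) were 1036 and 839 FPKM, against 198.5 to 414 FPKM in the other 6, and their dividing-cell markers were 53.1 and 37.1 FPKM, against 56.2 to 156 FPKM. For dividing cells the gap was small, since the younger replicate 2 of day 4 was at 56.2 FPKM. Endodermal markers (4 genes) were 10.2 FPKM in replicate 2 of day 6, against 245 to 1463 FPKM in the other 7. Shoot and seed markers stayed at or below 16.1 and 2.33 FPKM in these 8 libraries. In bulk RNA of this kind, fewer cells of a type and less RNA per cell cannot be told apart. Depth, read from the steps between low FPKM values, was about 12.2 to 14.5 M fragments (M for mega) on the younger side and 17.5 to 46.8 M fragments on the older side, so weak genes were measured more finely in the older libraries.

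No gene passed an adjusted p of 0.05 between the sides (limma on log2(FPKM + 1), Benjamini-Hochberg over 21060 genes). The smallest adjusted p was 0.16. At an unadjusted p under 0.05 there were 1212 genes, 5.75% of those tested, of which 636 were higher (3.02%) and 576 lower (2.74%) in the older libraries. The sides did not overlap in 635 genes (3.02%), 331 of them higher (1.57%) and 304 lower (1.44%). Differences, in log2(FPKM + 1), had a median of −0.04 across these genes. Profiles of the older libraries differed among themselves about as much as from the younger ones. The mean correlation across the tested genes was 0.892 between older libraries, 0.912 between younger ones and 0.897 across the sides; these are descriptions across genes, which are not independent. Replicate 1 of day 6 was closest to replicate 1 of day 3 (r = 0.945) and replicate 1 of day 7 to replicate 1 of day 4 (r = 0.940), both younger libraries. Replicate 2 of day 6 was closest to replicate 2 of day 7 (r = 0.902). Replicate 2 of day 7 was itself closest to an MZ library, replicate 2 of MZ day 6 (r = 0.918). The genes described first, 12 in each direction, are those with the smallest p among genes whose sides did not overlap. Genes described with the lists include members that overlapped. None passed in this comparison unless another fit is named.

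**Figure D1:**
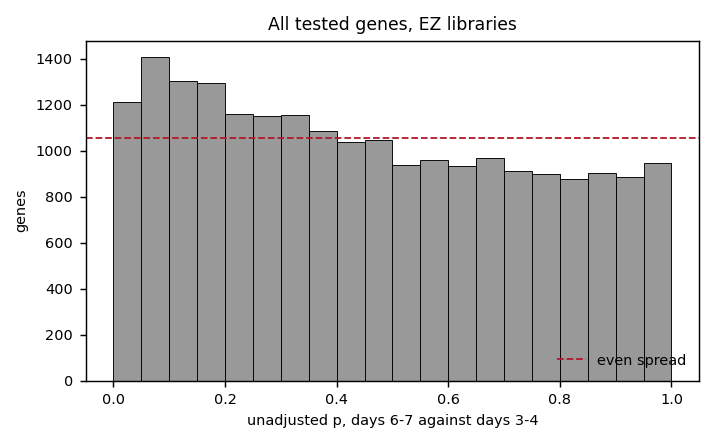
Unadjusted p values of the 21060 tested genes for days 6-7 against days 3-4 in the EZ libraries, in bins of 0.05. The dashed line marks 1053 genes, the height of every bin if p values were spread evenly. The lowest bin holds 1212 genes. That is fewer than the bins from 0.05 to 0.1 (1407), 0.1 to 0.15 (1303) and 0.15 to 0.2 (1293).

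GA20OX5 (AT1G44090), one of the oxidases that act late in gibberellin synthesis, had the smallest p. Its level was 24.8 and 36.1 FPKM at day 3 and 39.2 and 50.5 FPKM at day 4, against 6.07 and 1.25 FPKM at day 6 and 1.45 FPKM and a listed 0 at day 7. Every older library lay below every younger one, and the day 5 libraries, at 22 and 4.36 FPKM, lay below all 4 younger ones as well. The difference was −3.91 ± 0.51 (SE) on the log2(FPKM + 1) scale, with an unadjusted p of 8.62e-06 and an adjusted p of 0.16 (limma). Without replicate 2 of day 6 and of day 7 it was −3.17.

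OPT3 (AT4G16370), a transporter of the phloem that carries the signal of iron status from shoot to root, came second. It stood at 46.8 and 27.4 FPKM at day 3 and 32.6 and 26.9 FPKM at day 4, against 4.81 and 7.95 FPKM at day 6 and 8.97 and 3.81 FPKM at day 7. The older libraries were again all lower, and both day 5 libraries also lay below every younger one. The difference was −2.25 ± 0.31 (SE, log2), with an adjusted p of 0.16 (limma), and −2.14 without the pair of libraries that stood apart.

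Among genes with more RNA in the older libraries, AGL17 (AT2G22630), a MADS-box transcription factor known from roots, had the smallest p. Its level was 3.13 and 2.65 FPKM at day 3 and 10.7 and 6.48 FPKM at day 4, then 21.2 and 25.6 FPKM at day 6 and 20.5 and 28.1 FPKM at day 7. The 4 older libraries lay close together and well above the younger ones, and both day 5 libraries, at 23.0 and 20.4 FPKM, were already at that level. The difference was 2.03 ± 0.38 (SE, log2), with an adjusted p of 0.58 (limma), and 1.86 without the pair of libraries that stood apart.

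With all 20 libraries sharing 1 estimate of spread, 14 genes passed (0.0665% of those tested), 11 higher (0.0522%) and 3 lower (0.0142%). This fit takes a mean for each age and label, so differences between ages leave its spread, and the MZ libraries enter it. In those HSP23.6 was at most 1.32 FPKM. The part that such low values have in the calls was not tested. Among them were AGL17 (adjusted p 0.00252), GA20OX5 (0.0142), HSP23.6 (0.0286) and OPT3 (0.0344), all from limma. Over 20 settings, this fit included, AGL17, HSP23.6 and OPT3 passed in 1, which is this fit, and GA20OX5 passed in 3. The highest adjusted p over those settings was 1.00 for AGL17 and HSP23.6, 0.80 for GA20OX5 and 0.53 for OPT3. Of the other 10, 7 have no exon model in the annotation used, 2 have transcripts of at most 129 bases, and all 10 were listed at 0 in at least 3 of the 4 younger libraries. The tenth, AT1G26400, a berberine bridge enzyme-like protein, averaged 1.85 FPKM in the older libraries.

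**Figure D2:**
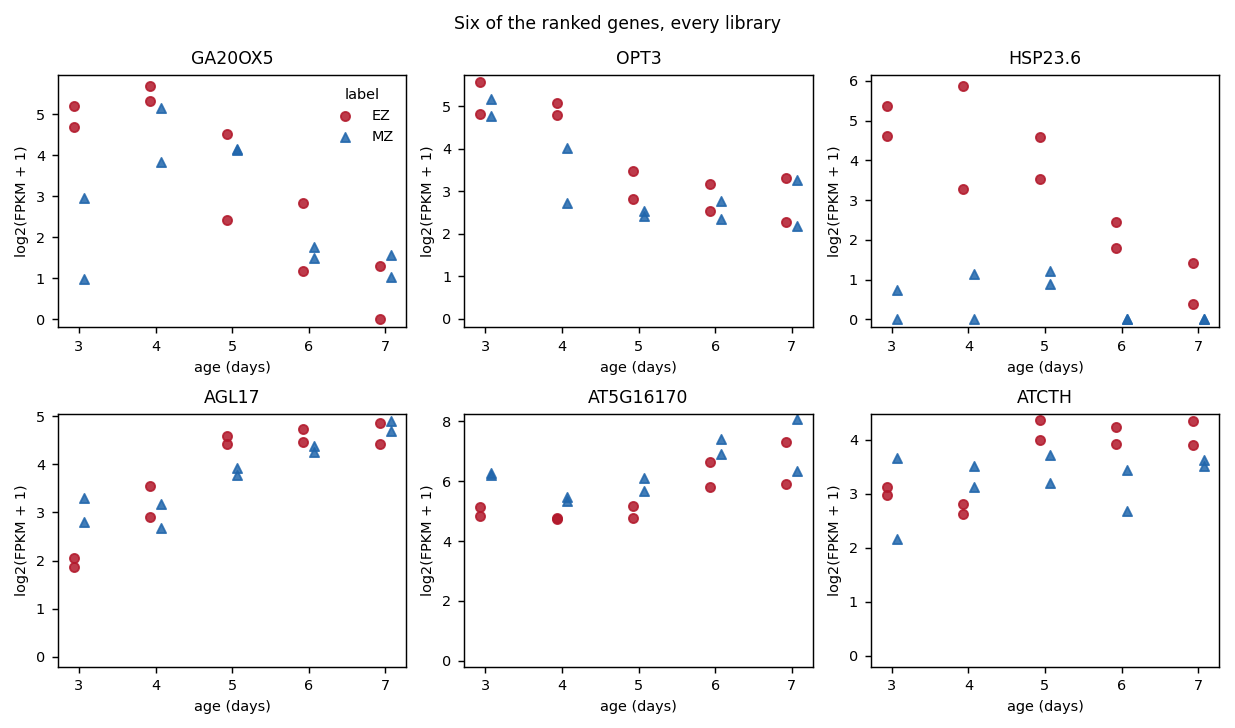
Level of 6 ranked genes in all 20 libraries, as log2(FPKM + 1) against age in days; circles are EZ and triangles MZ libraries, 1 point per library. GA20OX5, OPT3 and HSP23.6 are lower, and AGL17, AT5G16170 and ATCTH higher, in all 4 EZ libraries of days 6-7 than in all 4 of days 3-4.

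The other ranked genes with lower levels were HSP23.6, described with its list, and 9 more. ADH1, the alcohol dehydrogenase of fermentation, ranged from 9.95 to 59.6 FPKM in the younger libraries and from 0.337 to 8.67 FPKM in the older ones (difference −2.73 ± 0.64, SE, log2). MSS1 (AT5G26340), a hexose transporter also called STP13, ranged from 146 to 297 FPKM and from 36.8 to 120 FPKM (−1.61 ± 0.35). AER, an alkenal reductase that removes reactive carbonyls, ranged from 15.1 to 82.0 FPKM and from 3.94 to 10.3 FPKM. AT5G55180, a glycosyl hydrolase of family 17, ranged from 206 to 288 FPKM and from 42.1 to 108 FPKM (−1.83 ± 0.30). The rest were AT5G16010, annotated as a steroid dehydrogenase, AT2G26390, a serpin, FES1A, the noncoding RNA AT5G03285, and the spliceosomal RNA U12, whose 175-base transcript makes FPKM uncertain. In each of these 9 the highest older library lay below the lowest younger one, as the rule for naming them required.

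The other ranked genes with higher levels included a transporter, a zinc finger protein and several genes of little-known function. AT5G16170, annotated as a glycosyltransferase, was at 27.3, 34.5, 25.5 and 26 FPKM in the younger libraries and at 55.5, 98.3, 59 and 159 FPKM in the older ones (1.56 ± 0.32, SE, log2). The pair of libraries that stood apart held its highest values. ATCTH, a zinc finger protein, ranged from 5.15 to 7.76 FPKM and from 13.9 to 19.4 FPKM (1.22 ± 0.27), and both day 5 libraries were already at 14.9 and 19.7 FPKM. NCS1, a nucleobase transporter of the plastid, ranged from 10.2 to 15.3 FPKM and from 19.3 to 27.6 FPKM (1.02 ± 0.24). AT5G26280, a TRAF-like protein, had a higher level, 91.2 to 141 FPKM against 185 to 249 FPKM (0.86 ± 0.21). AT4G22666, a lipid transfer protein, was at 112 to 237 FPKM and at 261 to 515 FPKM. The remaining 6 were NHL25, AT3G06990, AT5G57500, AT3G16220, AT3G03280 and the noncoding RNA AT2G14878, with differences from 0.77 to 1.93.

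Heat shock proteins were the gene list with the lowest median. Small heat shock proteins hold unfolding proteins in solution, HSP70, HSP90 and HSP101 refold or disaggregate them, and heat shock factors (HSFs) switch these genes on through paired GAA and TTC elements in their promoters. None of 18 tested members passed the adjusted threshold. At an unadjusted p under 0.05, 9 of 18 were lower and 0 higher, against 2.74% and 3.02% of all tested genes, and in 4 of 18 the older libraries lay wholly below the younger ones, against 1.44%. The list's median difference was −1.06 on the log2(FPKM + 1) scale, against −0.04 over all tested genes. Of its members 16 of 18 were negative, against 11313 of all 21060 tested genes.

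HSP23.6 (AT4G25200), a small heat shock protein of mitochondria, had the largest difference. It was at 23.3, 40.2, 8.70 and 57.3 FPKM in the younger libraries and at 4.42, 2.47, 0.313 and 1.67 FPKM in the older ones. No older library reached the lowest younger value, and the day 5 libraries, at 23.1 and 10.6 FPKM, lay within the younger range. The difference was −3.27 ± 0.58 (SE, log2), with an adjusted p of 0.54 (limma). Levels of HSP70 (AT3G12580) were 101, 138, 87.2 and 210 FPKM against 68.1, 26, 80.2 and 57.6 FPKM (−1.22 ± 0.37). HSP22.0, a small heat shock protein of the endoplasmic reticulum, was at 9.92, 14.6, 12 and 30.1 FPKM against 9.62 FPKM, a listed 0, 7.71 FPKM and 0.425 FPKM. The gap between its sides was narrow, since replicate 1 of day 6 lay just below replicate 1 of day 3. FES1A, a partner of HSP70, ranged from 25.9 to 71.0 FPKM and from 13.9 to 22.7 FPKM (−1.22 ± 0.31).

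HSP17.6II, HSP90.1, HSP17.6A, HSP17.4 and BAG6 also had an unadjusted p under 0.05 but overlapped between sides, because replicate 1 of day 4 was low for each of them. HSP90.1, for example, was at 31.6, 52, 13.4 and 59.3 FPKM against 10.9, 2.62, 14 and 5.6 FPKM. HSP17.4 shares 65.1% of its 32-base words with other genes, so its level is uncertain. Of the 3 heat shock factors, HSFA2 was at 4.31 to 12 FPKM against 3.96 to 11.3 FPKM and HSFA7A at 37.4 to 46.1 FPKM against 39 to 118 FPKM, with unadjusted p of 0.87 and 0.26. HSFB2A was at 31.7, 27.3, 24.6 and 29.6 FPKM against 22, 11.4, 36.1 and 24.7 FPKM, lowest in the day 6 libraries and highest in replicate 1 of day 7 (unadjusted p 0.28).

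The list mean was 4.29 to 5.08 (log2) in the younger libraries, 4.81 and 4.82 at day 5, and 4.32, 3.00, 3.83 and 3.72 in the older ones. In the 8 MZ libraries of days 3, 4, 6 and 7 it was 2.00 to 3.46, below every younger EZ library. Without the pair of libraries that stood apart, the median was −0.66, with 5 of 18 members at an unadjusted p under 0.05 and lower, against 0.736% of all genes in that fit. The part that root cap or dividing cell content, which move in the same libraries, has in this difference was not tested.

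The 200 bases before the annotated start of each heat shock gene were searched for GAANNTTC and TTCNNGAA, which read the same on both strands and may overlap each other. At least 1 was found in 7 of 18 windows (38.9%) and in 2658 of 20803 windows of all tested genes (12.8%). A set of 3 is printed, 5′ to 3′ with the matches in capitals, because they show that windows with several matches and windows with none both occur: HSP23.6 and HSP17.4 had an unadjusted p under 0.05 between the sides and HSFA7A had not. HSP17.4 lies on the minus strand at chr3:16984842-16985041, HSFA7A on the plus strand at chr3:19264941-19265140 and HSP23.6 on the plus strand at chr4:12916726-12916925, in RefSeq's TAIR10.1.
HSP17.4: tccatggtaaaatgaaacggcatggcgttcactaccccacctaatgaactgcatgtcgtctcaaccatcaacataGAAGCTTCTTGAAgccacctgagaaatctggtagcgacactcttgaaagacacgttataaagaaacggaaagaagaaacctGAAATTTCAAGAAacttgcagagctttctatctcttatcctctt
HSFA7A: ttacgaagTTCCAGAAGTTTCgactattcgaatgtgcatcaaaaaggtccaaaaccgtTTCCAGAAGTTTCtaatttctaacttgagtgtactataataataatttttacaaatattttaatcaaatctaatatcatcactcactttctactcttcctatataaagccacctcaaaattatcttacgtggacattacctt
HSP23.6: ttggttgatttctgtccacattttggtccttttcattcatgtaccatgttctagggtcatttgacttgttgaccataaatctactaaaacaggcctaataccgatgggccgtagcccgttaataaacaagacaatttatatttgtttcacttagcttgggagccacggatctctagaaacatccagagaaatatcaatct
HSP17.4 and HSFA7A each hold 4 matches in overlapping pairs, and HSP23.6 holds 0 in this window. Of the 4 genes whose sides did not overlap, HSP70, HSP22.0 and HSP23.6 hold 0 and FES1A 1, in a window that overlaps an exon of another gene model. A match here is a run of letters, not a bound site.

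**Figure D3:**
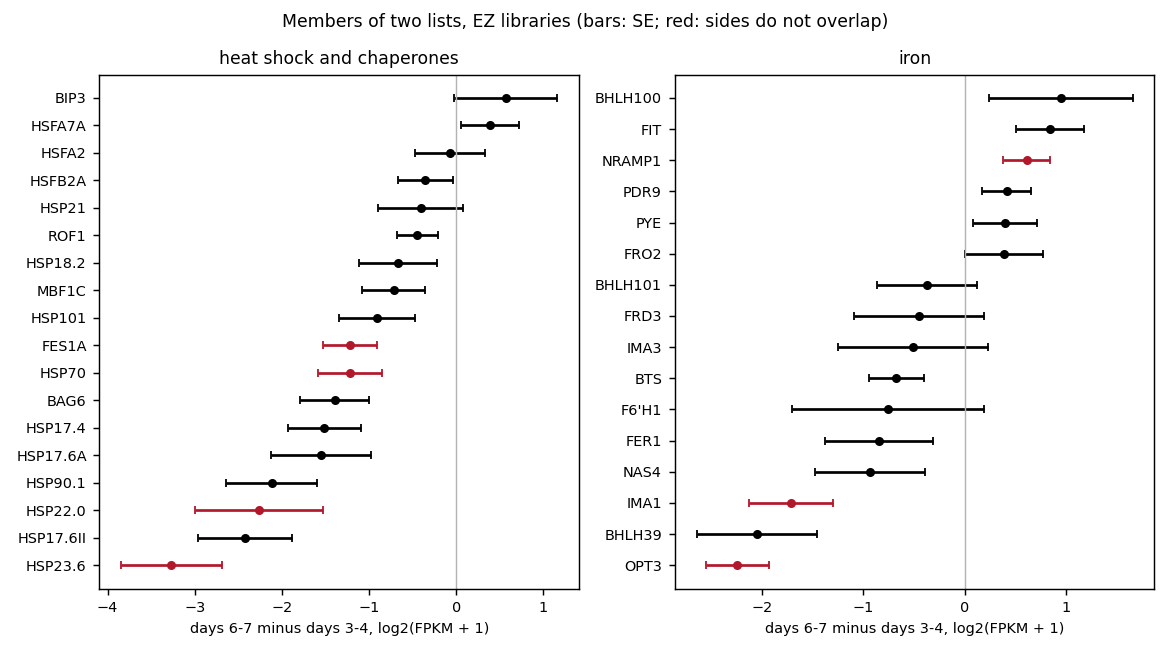
Difference of each tested member of the heat shock list (18 genes) and the iron list (16 genes), days 6-7 minus days 3-4 in log2(FPKM + 1), with SE bars from limma; red marks members whose sides do not overlap. HSP23.6 at −3.27 and OPT3 at −2.25 are the lowest of each list.

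Iron genes had members on both sides. Roots take up iron with the reductase FRO2 and the transporter IRT1 under the bHLH factor FIT, and IMA peptides and bHLH factors of subgroup Ib report shortage. Of 16 tested members 2 were higher and 4 lower at an unadjusted p under 0.05, against 3.02% and 2.74% of all tested genes. The sides did not overlap in 1 higher and 2 lower members, against 1.57% and 1.44%, and the median was −0.48 (log2). On the lower side were signalling genes besides OPT3. The peptide gene IMA1 was at 6.04, 6.08, 3.29 and 1.92 FPKM against 0.272, 0.165, 0.820 and 0.992 FPKM (−1.71 ± 0.41, SE, log2), and BHLH39 at 12.1, 7.11, 8.34 and 0.912 FPKM against 0.0567, 0.895, 1.71 and 0.165 FPKM. Both were weak. For BHLH39 replicate 2 of day 4 was already as low as the older libraries. BHLH100, of the same subgroup, had the highest difference of the list, at 0.672, 0, 1.53 and 0 FPKM as listed against 0.194, 9.29, 0 and 3.84 FPKM (0.95 ± 0.71, unadjusted p 0.20), high in the pair of libraries that stood apart. BTS, an E3 ligase that restrains the response, was at 22 to 36 FPKM against 13 to 26.4 FPKM. On the higher side were the metal transporter NRAMP1, at 83.3 to 106 FPKM against 110 to 214 FPKM (0.62 ± 0.23), and FIT, at 9.05 to 26.1 FPKM against 19.9 to 39.2 FPKM (0.84 ± 0.33). FRO2 overlapped between the sides, with a difference of 0.39 ± 0.39 (SE, log2). Without the pair of libraries that stood apart the median was −0.32, with 0 members higher and 3 lower at an unadjusted p under 0.05, against 1.57% and 0.736% of all genes in that fit.

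Cold and abscisic acid response genes, dehydrins among them, had a median well below that of all tested genes. Of 15 tested members 5 were lower and 1 higher at an unadjusted p under 0.05, against 2.74% and 3.02% of all tested genes. In none did the sides part, and the median was −0.88 (log2). RAB18, a dehydrin, was at 15, 16.4, 18.6 and 3.88 FPKM against 0.429 FPKM, a listed 0, 10.4 FPKM and 1.72 FPKM. COR47, a more abundant one, was at 552 to 1150 FPKM against 407, 141, 1040 and 202 FPKM. Replicate 1 of day 7 lay within the younger range for both, and the other older libraries lay below it. KIN1, RD29A and ERD10 had the same pattern, and DREB2A, a transcription factor of drought and heat response, was the member that was higher (554 to 676 FPKM against 657 to 1190 FPKM). Without replicate 2 of day 6 and of day 7 the median was −0.24 and 0 members had an unadjusted p under 0.05, where 1.57% of all genes were higher and 0.736% lower.

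Genes of cell division and growth had medians below that of all tested genes, with replicate 1 of day 6 higher than the other 3 older libraries. The mean of the ribosome list, for example, was 8.51 (log2) there and 7.34, 7.66 and 7.42 in the others, against 7.64 to 8.63 in the younger libraries. None of 26 mitosis and cytokinesis genes had an unadjusted p under 0.05, although 23 of 26 were negative, with a median of −0.48. Among all 21060 tested genes 11313 were negative. The mitotic cyclin CYCB1;1 was at 17.1, 18.6, 15 and 2.18 FPKM against 25.4, 1.54, 4.62 and 1.47 FPKM, so that each side held both high and low libraries. KNOLLE, the syntaxin of the cell plate, had the same pattern, at 0.0738 FPKM in replicate 2 of day 4 and 28.0 FPKM in replicate 1 of day 6. Of 27 DNA replication genes 25 were negative with a median of −0.57, and the ligase LIG1 and the DNA methyltransferase CMT3 were lower at an unadjusted p under 0.05, 2 of 27 members against 2.74% of all tested genes. LIG1 was at 34.8, 22.8, 19.7 and 25.2 FPKM against 22.1, 14.2, 13.4 and 14.4 FPKM (−0.64 ± 0.26). All 20 ribosome and nucleolus genes were negative, with a median of −0.36 and 0 at an unadjusted p under 0.05. RPS6A, for example, was at 708 to 1290 FPKM against 640 to 1190 FPKM. Without the pair of libraries that stood apart the medians were 0.06 for mitosis, −0.13 for replication and −0.07 for ribosomes, against 0.07 over all tested genes. Replicate 1 of day 6 is then 1 of only 2 older libraries. Low dividing-cell markers, KNOLLE among them, helped to set the pair apart. Higher medians of the division lists without it were therefore partly built into that choice.

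Stem cell niche and meristem genes (22 tested) had a median of 0.01, or −0.08 after quantile normalisation. At an unadjusted p under 0.05, 2 were lower, TMO5 and WOX5, and 0 higher, against 2.74% and 3.02% of all tested genes. WOX5, which marks the quiescent centre, was listed at 0 in replicate 1 of day 3 and was at 4.09, 8.82 and 30.2 FPKM in the other younger libraries, against 1.26 FPKM, a listed 0, 1.74 FPKM and 0.387 FPKM (unadjusted p 0.049, limma). PLT1, a PLETHORA factor of the meristem, was at 6.23 to 22.2 FPKM against 2.13 to 17.8 FPKM. TMO5, which drives divisions in young vascular cells, was at 9.79 to 22.6 FPKM against 10, 2.51, 14.7 and 3.28 FPKM, low in the pair of libraries that stood apart. Of the 11 endocycle genes 2 were positive and 9 negative, against 9747 and 11313 of all 21060 tested genes. The list's median was −0.08, with 0 at an unadjusted p under 0.05. DEL1, a repressor of the endocycle, was at 5.16 to 14.4 FPKM against 3.86 to 8.43 FPKM (−0.62 ± 0.38). CCS52A1, 1 of the 2 positive members and an activator of the anaphase-promoting complex that brings on the endocycle, was at 11.7 to 19.5 FPKM against 18.5 to 32.5 FPKM (0.57 ± 0.26).

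**Figure D4:**
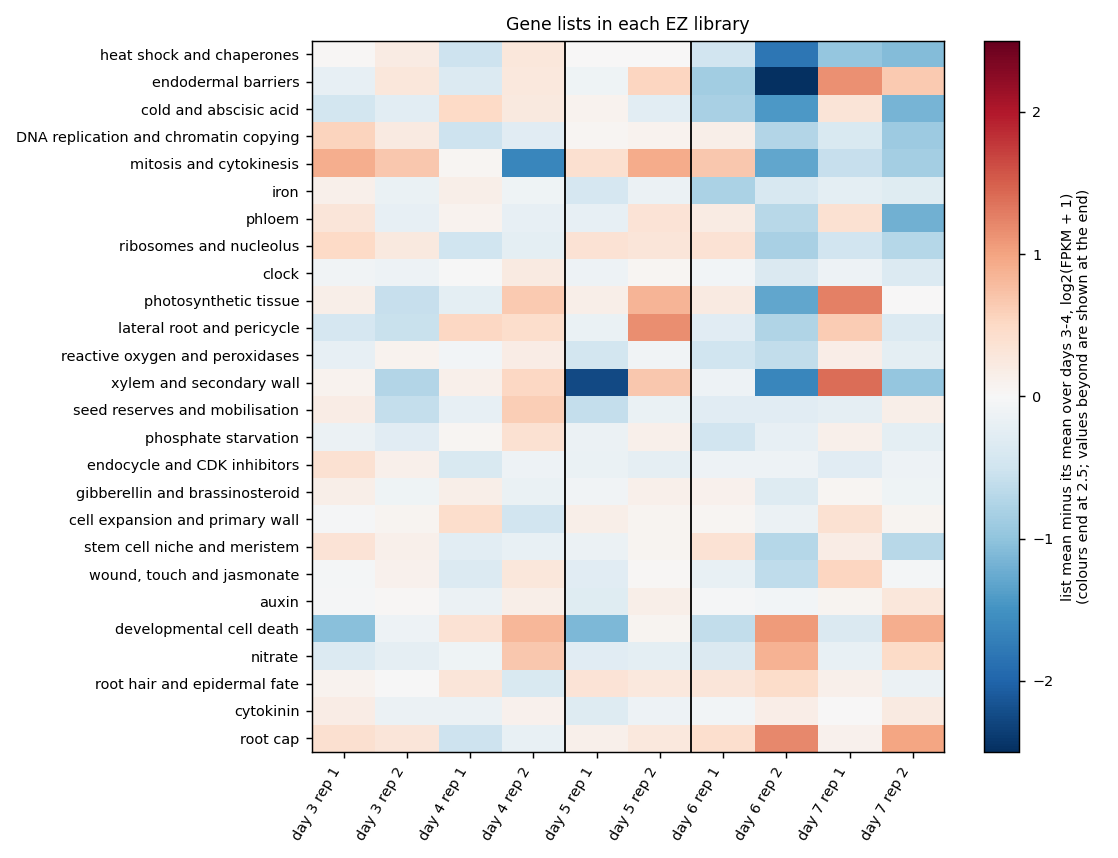
Mean log2(FPKM + 1) of each of 26 gene lists in the 10 EZ libraries, minus its mean over the 4 libraries of days 3-4; lines part days 3-4, day 5 and days 6-7. Replicate 2 of day 6 and replicate 2 of day 7 share low division lists and high root cap and cell death lists. The younger replicate 2 of day 4 has a still lower mitosis mean (1.32 log2, against 1.64 and 2.08). Its cell death mean (6.55) is near theirs (6.80 and 6.64). Heat shock is below the days 3-4 mean in all 4 libraries of days 6-7.

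Root cap genes had the highest median of the lists. Of 9 tested members 8 were positive, against 9747 of all 21060 tested genes, with a median of 0.66 (log2). At an unadjusted p under 0.05, 2 were higher, against 3.02% of all tested genes. RCPG, a polygalacturonase of the cap, was at 80.9, 177, 27.5 and 10.2 FPKM against 201, 318, 170 and 320 FPKM (2.39 ± 0.68, SE, log2). Replicate 2 of day 3 reached replicate 1 of day 7, so its sides overlapped. CEL5, a cellulase of cap cells that are shed, was at 136 to 368 FPKM against 290, 546, 296 and 736 FPKM. SMB, BRN1 and BRN2, the NAC factors of cap maturation, were highest in the pair of libraries that stood apart. BRN2, for example, reached 368 and 229 FPKM there and 77.8 and 88.7 FPKM in the other older libraries, against 77.5 to 137 FPKM in the younger ones. Without that pair the list median was −0.01. The pair was set apart by root cap markers that belong to this list, so a lower median without it was built into that choice. Developmental cell death genes, which cap and xylem cells share, went from 0.20 to −0.78 when the pair was left out.

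Lists of differentiated tissues had wide ranges among the older libraries. Endodermal barrier genes, which build the Casparian strip, had a median of −0.88 (14 tested, 0 at an unadjusted p under 0.05). CASP1, its scaffold protein, was at 271, 634, 314 and 639 FPKM against 170, 4.93, 1070 and 818 FPKM. The day 6 libraries lay below and the day 7 libraries above all younger ones, and the list medians were −2.61 at day 6 and 0.95 at day 7. Xylem genes (16 tested) had a median of −0.20, or 0.65 without the pair, and phloem genes (8 tested) −0.38, or 0.29. CESA7, a cellulose synthase of secondary walls, was at 3.85 to 18.8 FPKM against 10.8, 2.75, 36.9 and 9.77 FPKM. Root hair and epidermal genes (20 tested) had a median of 0.29 and cell expansion genes (19 tested) −0.00, or 0.03 after quantile normalisation. In the latter XTH17, which cuts and rejoins xyloglucan, was at 48.8 to 123 FPKM against 113, 133, 211 and 228 FPKM (1.00 ± 0.32, with an unadjusted p of 0.0088 from limma). Lateral root genes (4 tested) had a median of −0.31.

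**Figure D5:**
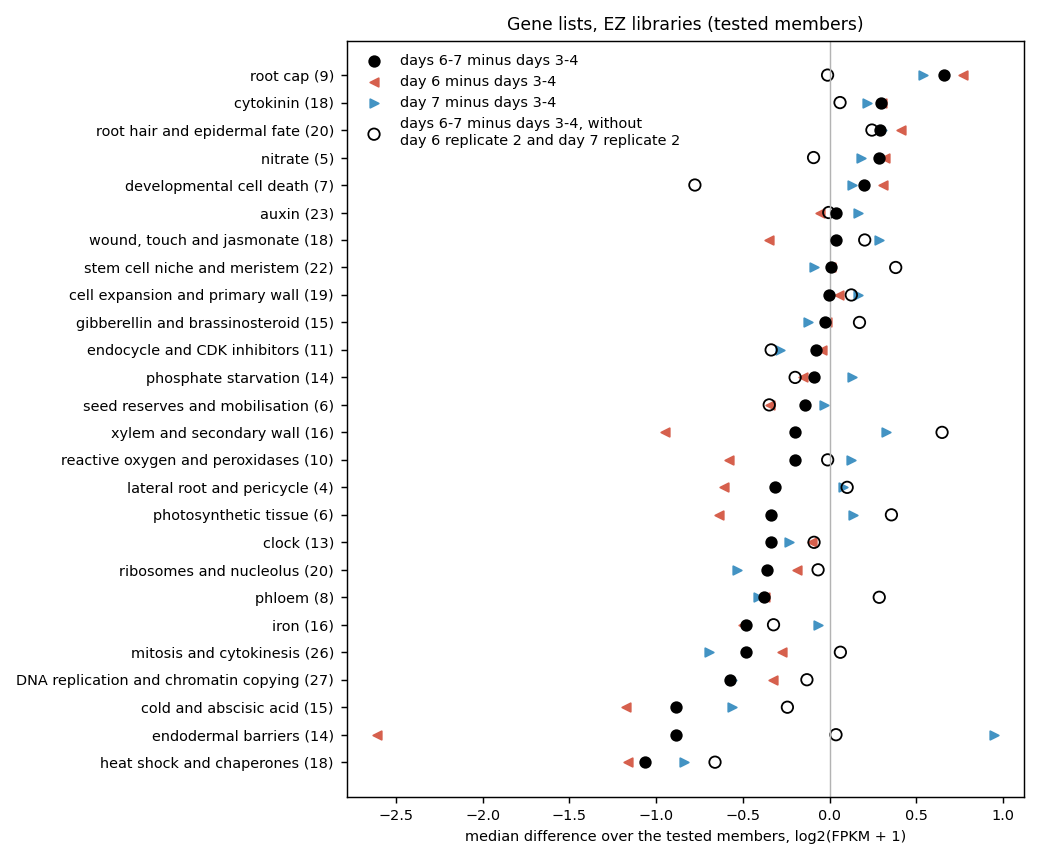
Median difference of the tested members of 26 gene lists, in log2(FPKM + 1), for days 6-7 (filled circles), day 6 and day 7 (triangles) against days 3-4, and for days 6-7 without day 6 replicate 2 and day 7 replicate 2 (open circles). Heat shock is lowest at −1.06 and root cap highest at 0.66; endodermal barriers lie at −2.61 for day 6 and 0.95 for day 7.

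Hormone lists had few members past the unadjusted threshold. Of 23 auxin genes (median 0.04) 2 were higher at an unadjusted p under 0.05, against 3.02% of all tested genes, and their sides overlapped. YUC3, a synthesis enzyme, was at 25.4, 16.5, 10.6 and 11.2 FPKM against 24.1, 50.4, 29.1 and 40.6 FPKM (1.16 ± 0.33). SHY2, the Aux/IAA repressor through which cytokinin acts on meristem size, was weak, at 0.659 to 2.69 FPKM against 1.90 to 5.91 FPKM. Of 18 cytokinin genes (median 0.30) 1 was higher and 2 lower at that threshold, against 3.02% and 2.74%. CKX4, an oxidase that breaks cytokinin down, was at 3.82 to 6.83 FPKM against 9.18 to 15.1 FPKM (1.01 ± 0.31), and the receptor AHK2 was at 2.62 to 3.82 FPKM against 4.21 to 6.79 FPKM (unadjusted p 0.061). In both the sides did not overlap, 2 of 18 members against 1.57% of all tested genes. LOG3, which activates cytokinin, was at 6.65, 4.16, 2.77 and 10 FPKM against 2.41, 0, 3.12 and 0 FPKM as listed. AHP6, an inhibitor of the pathway, was at 4.86, 2.83 and 4.34 FPKM in 3 younger libraries and listed at 0 in replicate 1 of day 4, and at most 0.128 FPKM in the older ones. In the gibberellin and brassinosteroid list (15 tested, median −0.03, or 0.03 with median-of-ratios scaling) BR6OX2, a late enzyme of brassinosteroid synthesis, was at 10.2 to 18.9 FPKM against 13.3, 3.26, 11.1 and 8.38 FPKM; GA20OX5 was not on the list.

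Of 18 wound and jasmonate genes (median 0.04) 2 were higher at an unadjusted p under 0.05, against 3.02% of all tested genes: ZAT12, at 228 to 516 FPKM against 420 to 904 FPKM, and MYC2, whose transcript shares 98.5% of its words with another gene model. Of 14 phosphate genes (median −0.09) 2 were lower, against 2.74%, SPX1 and PS2. SPX1, a sensor of phosphate status, was at 22.4 to 57.9 FPKM against 14.7, 5.49, 28.8 and 9.87 FPKM. Of 13 clock genes (median −0.34) 1 was lower, again against 2.74%, ELF4, of the evening complex, at 42.3 to 92.7 FPKM against 22.9 to 54.7 FPKM. The time of day at harvest was not given. In the peroxidase (10 tested, median −0.20), nitrate (5, 0.29), seed (6, −0.14) and photosynthetic (6, −0.34) lists 0 members had an unadjusted p under 0.05.

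Taken 1 age at a time, day 6 differed from days 3-4 in 1 gene (0.00475%) and day 7 in 0. At an unadjusted p under 0.05 there were 1442 genes (6.85%) for day 6, with 2.93% of those tested higher and 3.92% lower, and 1126 (5.35%) for day 7, with 2.98% higher and 2.36% lower. With only 2 libraries on the older side, no overlap is common: 7.59% of genes were higher and 7.29% lower in this way at day 6, and 7.15% and 7.72% at day 7. With all 20 libraries in the fit 23 genes passed at day 6 (0.109%), 22 of them higher (0.104%), and 2 at day 7 (0.0095%), both higher. The single gene was AT5G58595, at 137 and 55.6 FPKM at day 6 and listed at 0 in the other 8 EZ libraries (adjusted p 0.00745, limma). Among the MZ libraries it was at 63 FPKM in replicate 2 of day 4, a younger age, and listed at 0 in the rest. Its transcript is 84 bases long. The call was lost with a pseudocount of 0.1 (adjusted p 0.21), with the filter at 5 FPKM (0.10) and when any 1 younger library was left out (0.060 to 0.12), and it was lost without the pair of libraries that stood apart (0.44). Longer genes with the smallest p at day 6 were lower, and at day 7 nearer to the younger libraries. The peroxidase RCI3 was at 299 to 350 FPKM in the younger libraries, 85.8 and 80.1 FPKM at day 6 and 373 and 243 FPKM at day 7 (day 6 difference −1.96 ± 0.25, adjusted p 0.10). AT2G14900, annotated as gibberellin-regulated, was at 75 to 94.3 FPKM, 17.2 and 22.9 FPKM, and 93.3 and 63.7 FPKM. PER39, another peroxidase, followed the same course.

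At day 7 the smallest p again belonged to a short transcript, AT3G01572, of 114 bases, at 18.4 and 16.4 FPKM and listed at 0 in the other EZ libraries (adjusted p 0.059). AT2G33830, annotated as dormancy and auxin associated, was at 7.08 and 16.8 FPKM at day 3, at just over 20 FPKM in both libraries of day 4, 46.7 and 7.55 FPKM at day 6, and 219 and 203 FPKM at day 7 (3.74 ± 0.61, SE, log2; adjusted p 0.36). AT5G43520, a C1 domain protein, was at 6.31 to 38.9, 22.7 and 26.1, and 54.2 and 85.5 FPKM. RNS1, a secreted ribonuclease, was at 16.4 to 213 FPKM in the younger libraries and 11.1, 11.5, 12.3 and 5.65 FPKM in the older ones (day 7 difference −2.60 ± 0.39, adjusted p 0.33). GA20OX5 was −4.58 ± 0.56 at day 7 (adjusted p 0.13). In 97 genes the libraries of day 6 and of day 7 both parted from the younger ones but in opposite directions. This count is small beside the genes that parted in either direction, 3134 of 21060 at day 6 (14.9%) and 3131 at day 7 (14.9%).

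The same ages in the MZ libraries are other samples, though the labels do not say whether both sections of an age came from the same seedlings. AGL17 was at 5.42 to 8.84 FPKM on the younger and 18.0 to 28.8 FPKM on the older MZ side, with no overlap. Its difference was 1.57 on the log2 scale (exact permutation p = 0.029, two-sided, the smallest that 4 against 4 allows). Adjusted over 4 genes, the ranked ones among the 14 called with all 20 libraries, this p was 0.11. The spread of the MZ libraries entered the fit behind that choice, so the MZ p values of these genes are not an independent check. OPT3 was at 5.63 to 35.0 FPKM against 3.57 to 8.68 FPKM (−1.53, exact p = 0.086, adjusted 0.17) and GA20OX5 at 0.980 to 34.5 FPKM against 1.03 to 2.39 FPKM (−1.77, exact p = 0.14, adjusted 0.19). HSP23.6 was at most 1.22 FPKM in these 8 MZ libraries (−0.47, exact p = 0.43, adjusted 0.43). Of the ranked genes, 11 of 12 higher and 12 of 12 lower ones had the same sign in MZ, against 48.5% and 74.2% of all tested genes that were higher or lower in EZ. These sets are unlike. The median EZ differences were 1.25 and −2.10 for the ranked genes, which were chosen for small p and no overlap, and 0.28 and −0.30 for all tested ones.

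The difference between EZ and MZ in this change was tested directly and 0 of 21979 genes passed. At an unadjusted p under 0.05 there were 733 (3.34%), 603 higher (2.74%) and 130 lower (0.591%). The excess of higher genes came with a general offset. Across the 21060 genes of the EZ comparison this difference had a median of 0.10 (log2), and the change in MZ a median of −0.13. With all 20 libraries in the fit 2 passed (0.0091%), 1 in each direction (0.00455%). The smallest p belonged to MT2A, a metallothionein that binds copper and zinc. It was at 20.5 to 37.1 FPKM against 29.7 to 41.7 FPKM in EZ and at 33.5 to 69.1 FPKM against 8.19 to 19.1 FPKM in MZ, an EZ minus MZ difference of 1.97 ± 0.39 (SE, log2; adjusted p 1.00, limma). AT5G66440 was at 1.99 to 8.19 FPKM against 4.07 to 13.1 FPKM in EZ and at 9.38 to 18.1 FPKM against 2.38 to 8.43 FPKM in MZ. HSP23.6 (−2.79 ± 0.72, unadjusted p 0.0012) and the thiolase PKT4 (−1.33 ± 0.42) had negative differences. PKT4 was at 10.2 FPKM or more against 3.76 to 8.36 FPKM in EZ and at 1.58 to 3.24 FPKM against 2.99 to 4.69 FPKM in MZ. AT2G35742 and AT2G22426, the others ranked here, were an 80-base transcript and a gene that reached at most 2.21 FPKM in the EZ libraries used. For AGL17, OPT3 and GA20OX5 the zone difference was 0.47 ± 0.46, −0.72 ± 0.61 and −2.14 ± 0.95 (unadjusted p 0.32, 0.26 and 0.038), so a change peculiar to the EZ libraries was not shown for them.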

How the data were processed

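Libraries were made by the authors from sorted protoplasts with low input cDNA and library kits, per the labels' protocols. The deposited values are FPKM, made by the authors; TopHat2 2.0.13, Cufflinks 2.1.1 and TAIR10 appear in the submitters' processing notes, with roles and settings not given in the sources used here. Groups were taken from the sample titles. Values were taken as log2(FPKM + 1), which understates differences of weak genes, without further scaling, and fitted with limma 3.58.1 (R 4.3.3, two-sided, variance trend, Benjamini-Hochberg over all genes tested) in the libraries compared; day 6 and day 7 were fitted with a mean per age. Genes needed 1 FPKM in at least 2 libraries. Gene descriptions came by locus tag from RefSeq's TAIR10.1 (32489 of 33201 genes matched); its name differs from the build of the notes, and no coordinate was carried between them. Genes sharing at least 50% of 32-base words with other transcripts (3045) were not ranked. Ranked names needed no overlap between sides, a mean of 10 FPKM on the higher side and the smallest p, 12 per direction; from each of 26 lists (408 genes, 380 tested) the member of smallest p and the first member were eligible, and further members named in the text were chosen after their values were seen. The comparison, members and lists were chosen with earlier results of these data known. Depth was estimated from FPKM steps in transcripts of at least 2000 bases; 67.1% to 81.1% of these values lay near whole multiples. The fit and the depth estimate were tested on simulated data.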

Additional observations from a re-analysis of the deposited data

Results flagged for a closer look

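Of 102 groups of 4 values examined, 5 held 1 value far from the other 3, meaning a gap past Dixon's critical share of the group's range; chance gives about 1 in 20. AT3G03280 was at 27.3 FPKM in replicate 2 of EZ day 3, against 23.1 to 23.5 FPKM in the other younger libraries. AT5G03285 was at 17.9 FPKM in the same library, against 17.0 to 17.1 FPKM. AT5G26280 was at 248.9 FPKM in replicate 2 of EZ day 7, against 185 to 194 FPKM in the other older libraries. The mean of the endocycle list was 3.05 (log2) in replicate 1 of EZ day 7, against 3.19 to 3.20, and that of the seed list was 2.26 in replicate 2 of EZ day 7, against 1.82 to 1.88.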

How the results depend on the processing

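Counts of genes past an adjusted p of 0.05 (limma) were 0 for days 6-7, 1 for day 6, 0 for day 7 and 0 for the zone difference. With all 20 libraries in the fit they were 14, 23, 2 and 2. With a pseudocount of 5 they were 1 for days 6-7 (GA20OX5) and 1 for day 7, and with 0.1 they were 0 for day 6. Without the filter they were 81 for day 6 and 11 for day 7, and with the filter at 5 FPKM 0 for day 6. Without both replicate 2 of EZ day 6 and of EZ day 7 they were 1 (AT5G63715), 0, 1 and 2. Leaving out 1 library at a time gave 0 to 2, 0 to 21, 0 to 2 and 0 to 4; for days 6-7 the 2 came without replicate 1 of EZ day 7, the 21 came without replicate 1 of EZ day 6, and the 4 without replicate 1 of EZ day 7. Genes at an unadjusted p under 0.05 for days 6-7 numbered 1212, but 486 without that pair, 792 without replicate 2 of day 6, 715 without replicate 2 of day 7, 2023 without replicate 1 of day 6, 1994 without replicate 1 of day 7 and 1871 with all 20 libraries. The cause of these shifts was not tested. The replicate numbers are not said to pair samples, and deviations of equal numbers correlated at −0.018 to 0.076 between ages, and at 0.307 between day 6 and day 7. With the number as a replicate block the counts were 0, 1, 0 and 0. Depth differed between the sides, so weak genes and listed zeros limit the younger side most.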
